A study of Mus musculus with 6 samples.

Results

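Adipocyte and lipogenic genes were examined in the olfactory epithelium of Harlequin mice. The members were 7 genes of the fat cell (Adipoq, Cfd, Fabp4, Plin1, Lep, Retn and Cidec) and 3 of fatty acid synthesis and desaturation (Scd1, Fasn and Acaca). A probe set, the group of probes that reads 1 transcript on an Affymetrix array, was taken where the platform annotation gave exactly 1 of these symbols. This found 8 of the 10 genes, at 13 probe sets, among 18193 genes named by a probe set. Cfd and Plin1 were not analysed here. The question was whether a higher signal of Adipoq came with other fat cell genes, and a lower signal of Scd1 with other lipogenic genes. Adipoq and Scd1 prompted that question through their values in the Harlequin against control comparison, so their values are given as a description with no test.

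The arrays came from 3 male Harlequin mice (Hq/Y; strain field B6CBACAw-J/A-Pdcd8-Hq/J) and 3 male littermate controls (+/Y; strain field B6CBACa), all 6 months old. Harlequin is a germline X-linked mutation, present in every tissue and not in the nose alone, that lowers expression of Aifm1 (formerly Pdcd8). That gene encodes apoptosis-inducing factor, a protein of mitochondria. The study set out to relate gene expression to neurodegeneration under oxidative stress. Each mouse gave 1 array from microdissected epithelium, and the strain name and the genotype divide the mice in the same way, so they cannot be told apart.

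White fat cells store triacylglycerol in a single large droplet and secrete hormones. Adiponectin (Adipoq), leptin (Lep) and, in mice, resistin (Retn) are among those hormones, FABP4 carries fatty acids in the cytosol, and CIDEC and the perilipins coat the droplet. Fatty acids are built from acetyl-CoA by acetyl-CoA carboxylase (Acaca) and fatty acid synthase (Fasn), and stearoyl-CoA desaturase (Scd1) then adds a double bond. The transcription factors PPARgamma and C/EBPalpha drive the fat cell programme, and SREBP-1c and ChREBP drive lipogenesis.

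Promoter sequences are shown for Adipoq, the fat cell hormone that prompted the question, and Fasn, the lipogenic member set beside Scd1. They run from 250 bases before to 50 after the RefSeq transcript start (GRCm38.p6) and are read 5′ to 3′ on the strand of the gene. Capitals mark the CCAAT box, the core letters bound by NF-Y, in either orientation (CCAAT or ATTGG).
Adipoq, chr16:23146286-23146585, + strand: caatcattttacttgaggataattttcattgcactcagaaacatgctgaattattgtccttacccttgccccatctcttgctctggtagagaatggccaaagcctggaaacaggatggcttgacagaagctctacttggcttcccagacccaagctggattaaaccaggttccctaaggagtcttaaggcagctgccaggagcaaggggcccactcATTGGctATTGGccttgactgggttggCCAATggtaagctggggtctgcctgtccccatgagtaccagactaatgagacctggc
Fasn, chr11:120824498-120824797, - strand: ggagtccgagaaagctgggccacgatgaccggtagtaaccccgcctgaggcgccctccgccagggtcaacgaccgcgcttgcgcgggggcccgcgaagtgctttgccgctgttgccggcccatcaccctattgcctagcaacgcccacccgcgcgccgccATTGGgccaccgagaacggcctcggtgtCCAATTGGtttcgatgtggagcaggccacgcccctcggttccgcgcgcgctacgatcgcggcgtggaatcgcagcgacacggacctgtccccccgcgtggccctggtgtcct
Each promoter held 3 such matches, 1 read as CCAAT and 2 as ATTGG, and in Fasn the 2 nearest the start overlapped each other. Of 32851 mouse promoters of this length in the table, 37.4% held at least 1 CCAAT match. The letters TATAAA, held by 13.6% of those promoters, and CACGTG, held by 7.15%, were in neither window. RefSeq promoters were at hand for 6 of the 8 members analysed (Adipoq, Lep, Retn, Cidec, Fasn and Acaca). Those of Lep, Retn, Cidec and Acaca held 0 CCAAT matches. A match describes letters only.

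Markers of olfactory epithelium gave strong signals on all 6 arrays. Omp, of mature olfactory neurons, gave 15891.8 to 18821.7 on Harlequin arrays and 16391.9 to 17347.8 on control arrays, and Cyp2g1, of supporting cells, 17439.0 to 17864.0 on Harlequin arrays and 16585.7 to 18072.4 on control arrays. Aifm1, the mutated gene, fell in Harlequin mice to 21.2% of the control signal, by 2.20 on the log2 scale (limma adjusted p = 0.0158). The median probe set signal was 109.6 to 113.4 on Harlequin arrays and 107.9 to 119.7 on control arrays. Signals are linear and comparable between arrays of 1 probe set, not between probe sets. Differences are Harlequin minus control in log2(signal + 16), and genes were tested when their mean signal passed a filter at 61.1.

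Fabp4, Fasn and Acaca did not pass the test over all genes. Of the 8 members, 5 were past the filter (Adipoq, Fabp4, Scd1, Fasn and Acaca). Adipoq and Scd1 were in the fit, but they were chosen on this contrast and their p-values are not read. For Fabp4, Fasn and Acaca the limma adjusted p was 0.981 to 0.982, and 0.0303% of the 13219 genes tested were under 0.05. Fabp4 alone of these had an unadjusted p under 0.05, as did 4.58% of genes tested. That share is also the background for the lists below. Lep, Retn and Cidec lay below the filter and were not tested. In the plot of member signals by array, Adipoq and Scd1 are the genes whose genotypes do not overlap.

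**Figure D1:**
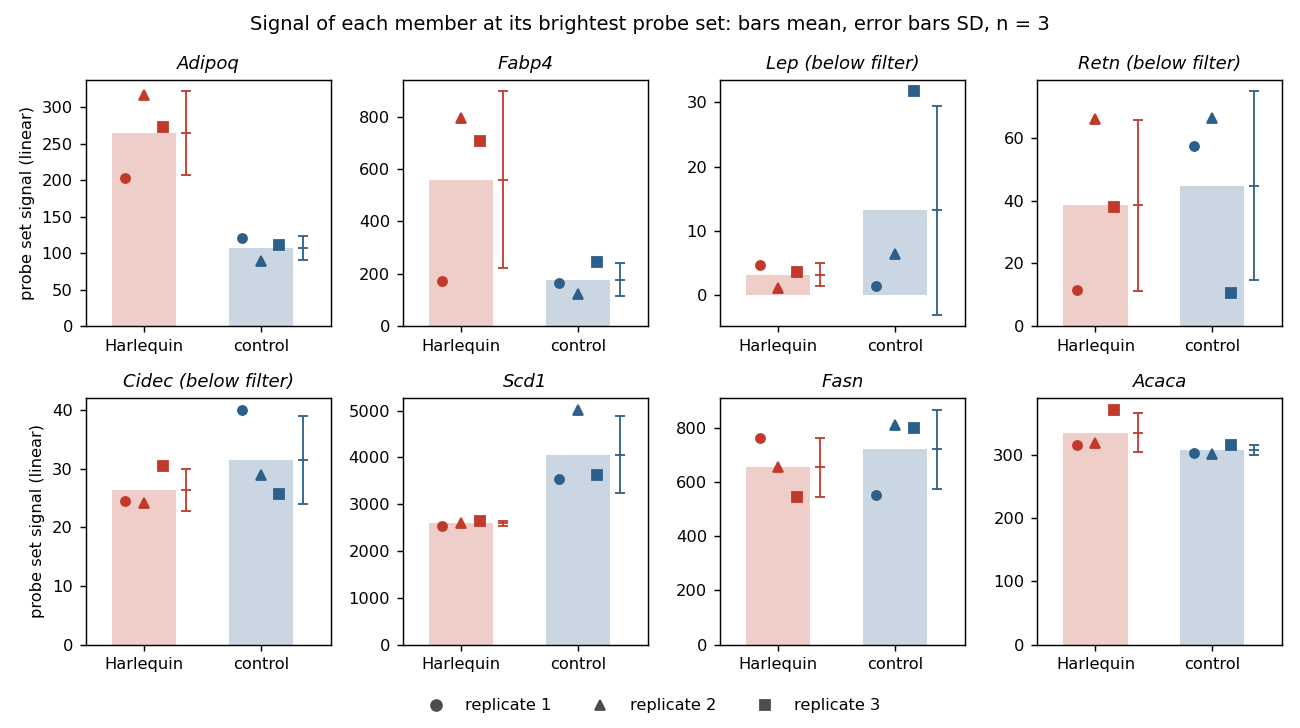
Signal (linear) of the 8 members at the brightest probe set of each, in Harlequin (red, left) and control mice (blue, right). Points are arrays, bars are means and error bars are SD (n = 3). Adipoq is higher in all 3 Harlequin mice, at 202.7 to 316.8, and Scd1 lower, at 2535.9 to 2642.2; Fabp4 is high in Harlequin replicates 2 and 3, at 796.1 and 709.6.

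Adipoq encodes adiponectin, a hormone secreted by fat cells that acts through AMP-activated kinase and PPARalpha in liver and muscle. Its single probe set (1422651_at) gave 202.7, 316.8 and 272.7 in Harlequin mice, against 121.3, 89.2 and 110.5 in controls. The lowest Harlequin value lay above the highest control, and 5.02% of all genes tested were likewise higher in all 3 Harlequin mice. The means were 264.1 ± 57.5 in Harlequin and 107.0 ± 16.3 in controls (SD, n = 3 each), a ratio of 2.47. The log2 difference was 1.17 (SE 0.21), which 0.136% of genes tested equalled or exceeded. Leaving out 1 array at a time moved it between 1.04 and 1.34.

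Fabp4, the cytosolic fatty acid carrier of fat cells, is also made by macrophages and by capillary endothelium. Its brightest probe set (1417023_a_at) gave 172.1, 796.1 and 709.6 in Harlequin mice, against 163.5, 121.8 and 245.6 in controls. Harlequin replicates 2 and 3 were far above every control, while replicate 1 lay within the control range, so the genotypes overlapped. The means were 559.3 ± 338 in Harlequin and 177.0 ± 63.0 in controls (SD, n = 3 each). The log2 difference was 1.37 (SE 0.52, 95% interval 0.17 to 2.56), short of the threshold after adjustment for every gene tested (limma adjusted p = 0.981). Without Harlequin replicate 1 the difference was 2.04 (limma adjusted p = 0.176), and without Harlequin replicate 2 it was 0.99 (limma adjusted p = 0.998); over all alternatives the adjusted p lay between 0.176 and 1.

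A second Fabp4 probe set past the filter (1451263_a_at) gave 122.0, 660.2 and 600.9 in Harlequin mice and 91.8, 177.6 and 146.3 in controls. It set the same 2 Harlequin mice apart, with a log2 difference of 1.36 (SE 0.57). The other 2 Fabp4 probe sets were dim, at 3.9 to 35.4 in Harlequin and 2.6 to 20.1 in controls, and differed by 0.31 and 0.47. On both dim probe sets Harlequin replicate 2 was the highest array, at 35.4 and 32.0, and Harlequin replicate 3, at 14 and 5.3, was near the controls. The mean over all 4 probe sets differed by 0.88.

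The droplet protein and the other hormones of the fat cell had weak signals. Cidec, which promotes fusion of lipid droplets into 1 large droplet, gave 24.5, 24.1 and 30.4 in Harlequin mice and 40, 28.9 and 25.6 in controls (log2 difference -0.16, 95% interval -0.70 to 0.38). Lep, the satiety hormone made in proportion to fat mass, gave 4.6, 1.1 and 3.6 in Harlequin mice and 1.4, 6.3 and 31.8 in controls (-0.48, 95% interval -1.31 to 0.36, and -0.05 without control replicate 3). Retn, which impairs insulin action in mice, gave 11.5, 66.3 and 37.9 in Harlequin mice and 57.5, 66.6 and 10.5 in controls (-0.13, 95% interval -1.35 to 1.08). The genotypes overlapped for all 3 genes. Retn ranged widely within both genotypes, and the sign of its difference turned when Harlequin replicate 1 (0.29) or control replicate 1 (0.08) or 2 (0.17) was left out.

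Over the 5 fat cell members analysed, 2 differed upward and 3 downward, with a median log2 difference of -0.13. Without Adipoq the median of the other 4 was -0.15, and the median over all 18193 genes was -0.006. Higher Adipoq thus came with higher mean Fabp4 and not with higher mean Cidec, Lep or Retn, which lay below the filter. In the plot of differences at all probe sets, the intervals of the dim ones are wide.

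**Figure D2:**
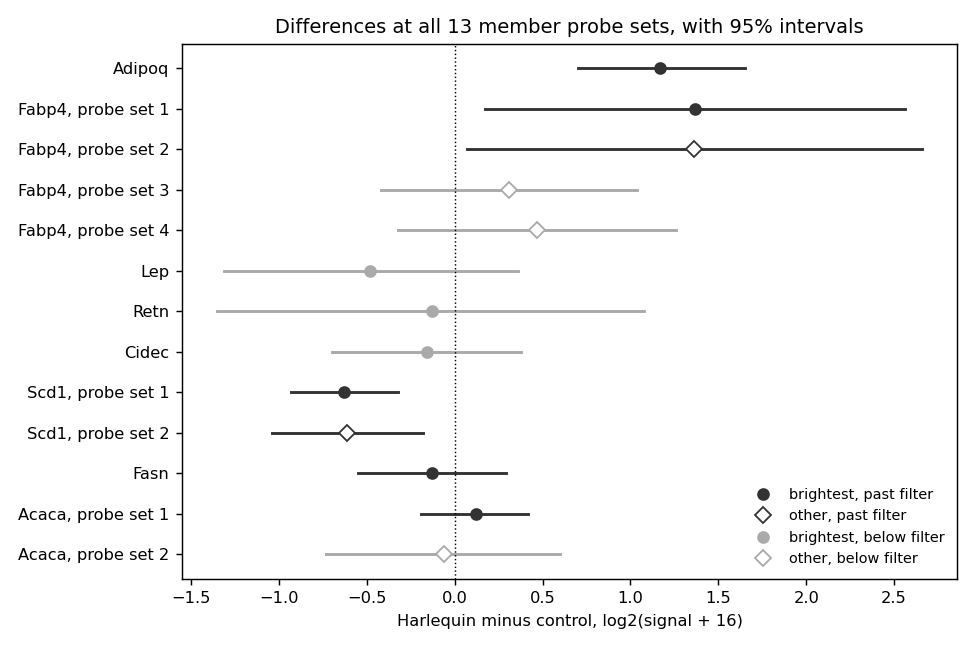
Harlequin minus control difference in log2(signal + 16) at each of the 13 member probe sets, with 95% intervals; grey marks probe sets below the signal filter and diamonds those that are not the brightest of the gene. Adipoq (1.17) and the 2 brighter Fabp4 probe sets (1.37 and 1.36) lie to the right and both Scd1 probe sets (-0.63 and -0.61) to the left. The intervals of Adipoq and Scd1 are a description and not a test, since these genes were chosen on this contrast.

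The other genes of the fat cell lay in both directions. Of 30 listed genes of lipolysis, lipid uptake, droplet coating and fat cell identity, 28 had a probe set and 23 were past the filter, and 0 passed the test in either direction (limma, adjusted p under 0.05; 2 had an unadjusted p under 0.05). Of the 28, 15 differed upward and 13 downward, with a median of 0.03. The regulators of the fat cell programme overlapped between the genotypes. Pparg gave 207.2, 234.5 and 235.4 in Harlequin mice and 149.0, 257.0 and 245.1 in controls (log2 difference 0.09, 95% interval -0.41 to 0.58). Cebpa gave 736.4, 1073.1 and 707.4 in Harlequin mice and 886.2, 894.5 and 856.8 in controls (-0.09, 95% interval -0.46 to 0.28).

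The perilipin Plin4, a droplet coat protein abundant in white fat, was dim and overlapped, at 40.1, 92.0 and 69.7 in Harlequin mice and 27.3, 37.2 and 62.7 in controls (log2 difference 0.51, 95% interval -0.27 to 1.28). Harlequin replicates 2 and 3 were above every control, as for Fabp4. The perilipins of other tissues differed less, Plin2 by 0.06, Plin3 by -0.01 and Plin5 by -0.22, and each overlapped between the genotypes. The genes of the list with the smallest unadjusted p lay in both directions. Sncg, a synuclein found in neurons as well as fat cells, gave 236.7, 216.3 and 178.8 in Harlequin mice, below all controls at 345.0, 407.8 and 274.9 (-0.65, limma adjusted p = 0.981). G0s2, an inhibitor of the lipase ATGL, gave 458.9, 505.3 and 408.0 in Harlequin mice, below all controls at 517.4, 604.9 and 698.2 (-0.39, limma adjusted p = 0.981). Rbp4, the retinol carrier, overlapped at a difference of 0.32.

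Lipe, Lpl and Car3, named here after their values were seen, lay upward without passing the test. They come from the same list of 28 genes, of which 13 differed downward. In that list 1 gene was higher in all 3 Harlequin mice and 3 were lower in all 3. Over all genes tested the shares were 5.02% and 5.34%. Lipe, hormone-sensitive lipase, gave 213.4, 166.1 and 221.3 in Harlequin mice and 153.9, 156.4 and 164.9 in controls (log2 difference 0.30, limma adjusted p = 0.981). Lpl, lipoprotein lipase of the capillary surface, gave 882.0, 1000.1 and 514.2 in Harlequin mice and 632.3, 623.9 and 477.8 in controls (0.41, limma adjusted p = 0.981). Lipe was higher in all 3 Harlequin mice by a narrow margin, and Lpl was above every control in Harlequin replicates 1 and 2. Car3, a carbonic anhydrase of fat and slow muscle, gave 510.8, 1478.4 and 468.1 in Harlequin mice and 775.7, 667.2 and 191.6 in controls (0.59, limma adjusted p = 0.982). Its highest array was Harlequin replicate 2, as for Adipoq and Fabp4, and its lowest was control replicate 3. With 1 array left out its difference ran from -0.02 to 0.94.

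Among genes of brown fat 0 of 7 tested passed (0 at an unadjusted p under 0.05), and the median over the 10 on the array was 0.09. In that list 0 genes were higher in all 3 Harlequin mice and 1 was lower, Prdm16, which had the smallest unadjusted p. Prdm16 gave 401.6, 223.2 and 414.7 in Harlequin mice and 417.1, 475.5 and 433.9 in controls (-0.38, limma adjusted p = 0.981). The mean over its probe sets differed by -0.11. Ucp1, the uncoupling protein that defines thermogenic fat, was dim at 4.2, 36.8 and 29.6 in Harlequin mice and 9.6, 3.8 and 10.6 in controls (log2 difference 0.62, 95% interval -0.25 to 1.49), with Harlequin replicates 2 and 3 again above every control. Cidea, a relative of Cidec named after its values were seen, gave 725.2, 1467.7 and 917.5 in Harlequin mice and 1334.9, 778.6 and 968.5 in controls (log2 difference -0.01). The map of deviations by array shows Adipoq and Fabp4 high together in Harlequin replicates 2 and 3.

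**Figure D3:**
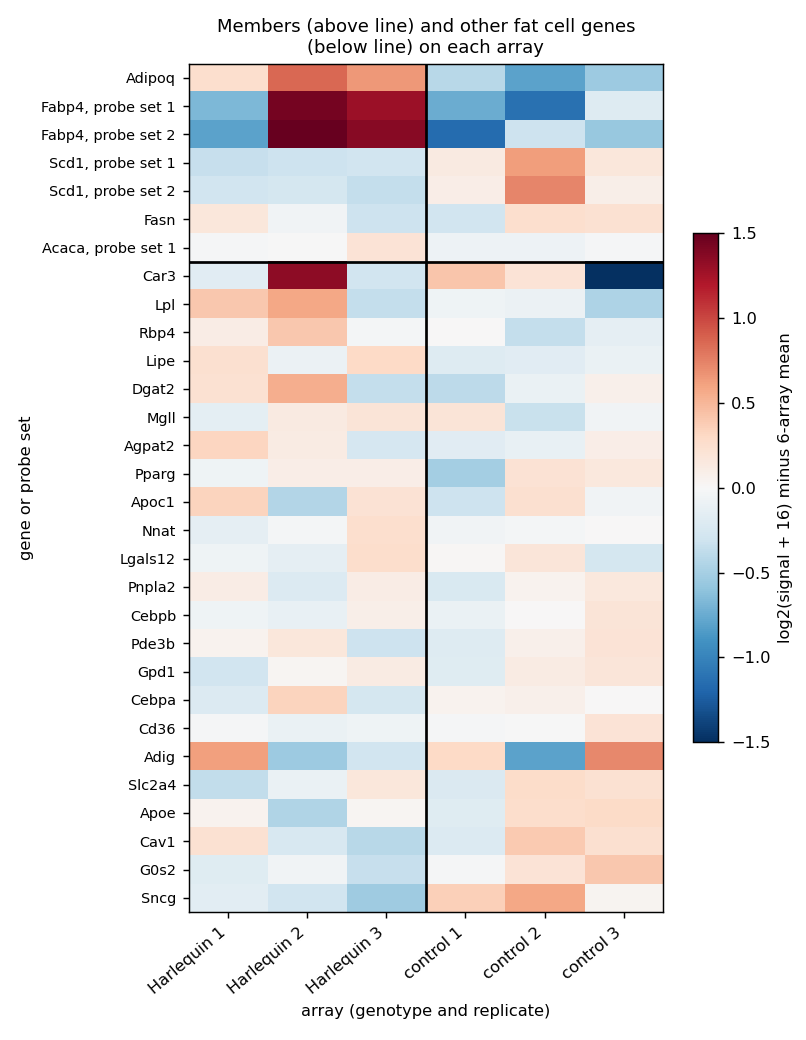
Deviation of log2(signal + 16) from the mean of the 6 arrays (colour, blue low and red high, limited to 1.5 in either direction), for member probe sets past the filter above the line and other fat cell genes past it below. Columns are arrays, Harlequin left. Fabp4 stands at 1.44 and 1.28 in Harlequin replicates 2 and 3 and at -0.67 in replicate 1, and Car3 is highest in Harlequin replicate 2.

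Scd1, the delta-9 desaturase that makes oleate and palmitoleate, was lower in Harlequin mice at both of its probe sets. The brighter one (1415964_at) gave 2535.9, 2596.4 and 2642.2 in Harlequin mice, against 3543.5, 5011.6 and 3623.9 in controls. The highest Harlequin value lay below the lowest control, and 5.34% of all genes tested were likewise lower in all 3 Harlequin mice. The second probe set (1415965_at) gave 321.8, 329.1 and 305.8 in Harlequin mice, against 426.1, 668.7 and 423.0 in controls, again without overlap. The Harlequin values were close together at both, while control replicate 2 stood above the other controls.

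At the brighter probe set the means of Scd1 were 2592 ± 53.3 in Harlequin and 4060 ± 825 in controls (SD, n = 3 each), so Harlequin stood at 63.8% of control. The log2 differences were -0.63 (SE 0.13) and -0.61 (SE 0.19) at the 2 probe sets, and 0.9% of genes tested differed downward by as much as the first. Without control replicate 2 the first difference was -0.47. Both probe sets read the same RNA on the same arrays and are not independent replicates.

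Fasn, which assembles palmitate, did not separate the genotypes. It gave 763.8, 656.2 and 544.2 in Harlequin mice and 554.4, 810.7 and 801.2 in controls. The means were 654.7 ± 110 in Harlequin and 722.1 ± 145 in controls (SD, n = 3 each), with a log2 difference of -0.13 (95% interval -0.55 to 0.29, limma adjusted p = 0.982).

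Acaca, the carboxylase that commits acetyl-CoA to fatty acid synthesis, gave 316.8, 319.6 and 372.1 in Harlequin mice and 304.0, 302.7 and 317.2 in controls. The means were 336.2 ± 31.2 in Harlequin and 308.0 ± 8.02 in controls (SD, n = 3 each), and the log2 difference was 0.12 (95% interval -0.19 to 0.42, limma adjusted p = 0.982). Its second, dim probe set overlapped as well and differed by -0.06. Of the 3 lipogenic members, 1 differed upward and 2 downward, with a median of -0.13, and without Scd1 the median was -0.01. Lower Scd1 therefore did not come with a separation of the genotypes at Fasn or Acaca.

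Relatives of Scd1 and Acaca were compared next. Scd2, the desaturase that predominates in brain, gave 5915.5, 3868.2 and 4036.7 in Harlequin mice and 5182.3, 6376.8 and 5016.0 in controls, where Harlequin replicate 1 was above 2 of the controls (log2 difference -0.28, 95% interval -0.66 to 0.10). Its other 2 probe sets differed by -0.29 and -0.23. Scd3 overlapped at both of its probe sets (0.02 and -0.02). Acacb, the mitochondrial carboxylase that restrains fatty acid oxidation, lay below the filter at 7.8, 35.1 and 44.1 in Harlequin mice and 50.5, 90.1 and 77.5 in controls, without overlap (-1.06), while its second probe set overlapped (-0.32).

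Of 22 other genes of fatty acid synthesis and desaturation, 19 were tested and 0 passed in either direction (0 at an unadjusted p under 0.05), with 8 of the 21 on the array upward, 13 downward and a median of -0.02. Among the genes tested, the smallest unadjusted p belonged to Tecr, the last reductase of the elongation cycle (log2 difference 0.18), and Fads1, the delta-5 desaturase (-0.21). Fads1 gave 1058.5, 1081.2 and 1073.9 in Harlequin mice, below all controls at 1102.7, 1372.4 and 1266.0, with control replicate 2 again the highest (limma adjusted p = 0.981). Srebf1, which encodes SREBP-1, differed by -0.07 (95% interval -0.29 to 0.14), and Mlxipl, which encodes ChREBP, was dim and differed by 0.10; both overlapped between the genotypes.

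Neighbouring lipid pathways had medians near 0 as well. Among cholesterol synthesis genes, 0 of 18 passed (3 at an unadjusted p under 0.05), with a median of -0.04, and these 3 lay in both directions. Fdps (0.21) and Nsdhl (0.24), of the sterol pathway, were higher in all 3 Harlequin mice and Stard4 (-0.42), a cholesterol carrier, was lower in all 3 (limma adjusted p = 0.981 each). Of 15 lipogenic regulators tested 0 passed (2 at an unadjusted p under 0.05, Mlx at 0.32, higher in all 3 Harlequin mice, and Rxra at -0.35, lower in all 3; median of all on the array -0.04). For glycerolipid synthesis and storage it was 0 of 17 (0 at an unadjusted p under 0.05, median 0.04). For fatty acid oxidation it was 0 of 17 (1 at an unadjusted p under 0.05, Hadh, with a list median of 0.05). Hadh differed by 0.29 at its brightest probe set and by -0.07 as the mean over its probe sets. Means over probe sets were smaller but of the same sign for Fdps (0.12), Stard4 (-0.19), Mlx (0.14) and Rxra (-0.19). Some genes stand in more than 1 of these lists.

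**Figure D4:**
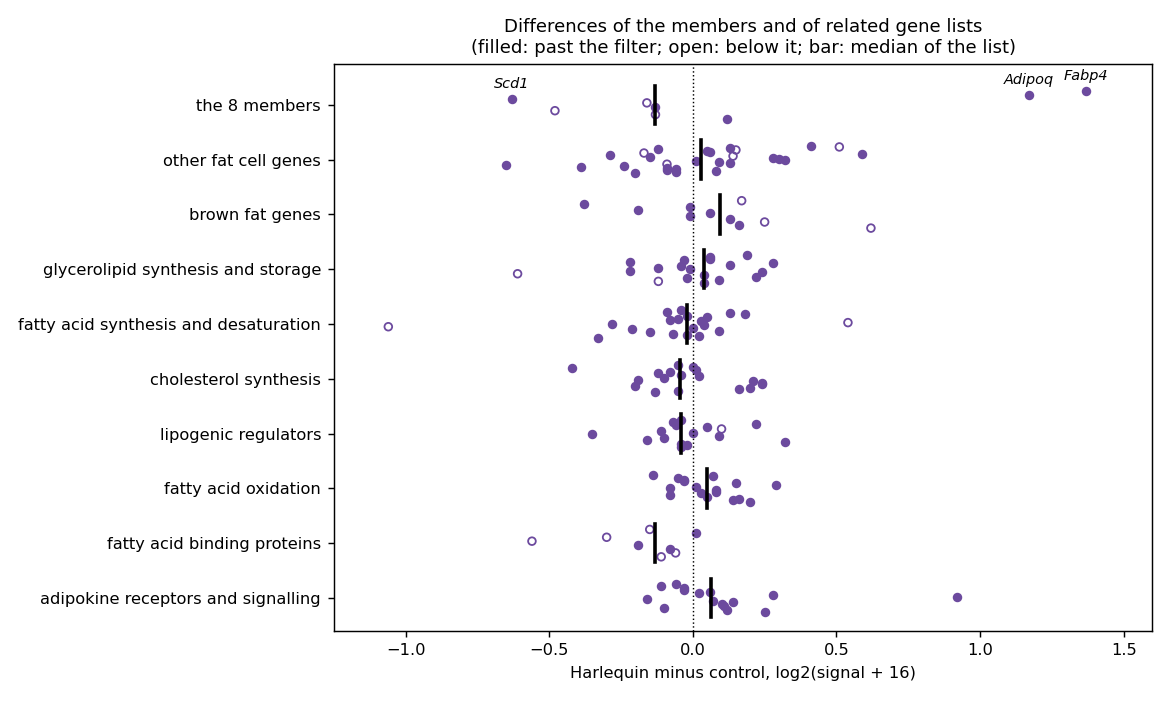
Harlequin minus control difference in log2(signal + 16) of the 8 members and of 9 related gene lists; each point is a gene at its brightest probe set, filled when past the signal filter, and each bar is the median of the list. The list medians lie between -0.13 and 0.09, and Fabp4 (1.37) and Adipoq (1.17) are the points farthest to the right.

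Receptors of the fat cell hormones were read by several probe sets each. Adipor1, the main adiponectin receptor of muscle, gave 10664.1, 10750.5 and 11404.2 in Harlequin mice and 10637.5, 10745.5 and 10049.9 in controls (log2 difference 0.06, 95% interval -0.09 to 0.21). Adipor2, the main one of liver, differed by -0.03 (95% interval -0.48 to 0.42) and Cdh13, which binds adiponectin at the cell surface, by 0.11 (95% interval -0.31 to 0.54). Lepr, the leptin receptor, was at 95.5, 137.1 and 130.5 in Harlequin mice and 99.1, 130.8 and 171.3 in controls at its brightest probe set (-0.11). A second Lepr probe set past the filter gave 93.1, 82.9 and 91.3 in Harlequin mice, above all controls at 57.4, 56.4 and 73.5 (0.43, 95% interval -0.08 to 0.93), and the other 2 overlapped (-0.18 and 0.45), so the Lepr probe sets disagreed in direction. Of the 16 genes of adipokine reception and signalling tested, 0 passed (0 at an unadjusted p under 0.05), and the median was 0.07. Cfb, complement factor B, which is cleaved by the product of Cfd, stood apart in that list at 308.4, 143.9 and 90.3 in Harlequin mice and 91.0, 47.8 and 103.8 in controls. Harlequin replicates 1 and 2 were above the controls and replicate 3 was not (log2 difference 0.92, 95% interval -0.04 to 1.87, limma adjusted p = 0.981).

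Among other fatty acid binding proteins 0 of 3 tested passed (0 at an unadjusted p under 0.05). Fabp7, the carrier of glia, gave 8170.0, 6240.9 and 7619.2 in Harlequin mice and 7428.3, 9421.9 and 8268.2 in controls (log2 difference -0.19, 95% interval -0.47 to 0.09). Fabp5, of epithelia, differed by -0.08 (95% interval -0.36 to 0.19) and Fabp3, of muscle, by 0.01 (95% interval -0.58 to 0.59). The genotypes overlapped for each of the 3 at its brightest probe set. A second, dim Fabp3 probe set gave 8.5, 42.6 and 17.2 in Harlequin mice, below all controls at 47.1, 64.5 and 52.4 (-0.96, 95% interval -1.74 to -0.17). Over the 8 genes of that list, 1 differed upward and 7 downward, with a median of -0.13, but only 3 were past the filter. Of all 18193 genes, 9354 differed downward. Fabp5 is counted as downward, while its second probe set past the filter differed by 0.11 and the mean over its probe sets by 0.02.

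Markers of the other cells that make Fabp4 were set beside it. In these samples of whole tissue, fewer cells of a type and less RNA per cell cannot be told apart. Of 15 macrophage markers on the array 10 differed upward, with 0 of 14 tested passing (2 at an unadjusted p under 0.05, C1qc and Tyrobp) and a summed signal of 15657 to 22602 in Harlequin mice and 14621 to 18802 in controls. Lyz2 gave the largest share of that sum. Of the 15, 3 were higher in all 3 Harlequin mice, C1qb (0.38), C1qc (0.37) and Fcer1g (0.43), and 0 were lower in all 3. Over all genes tested, 5.02% were higher in all 3 Harlequin mice and 5.34% were lower. The mean over the C1qb probe sets differed by 0.17. Tyrobp differed by 0.42, Csf1r, the receptor that defines macrophages, by 0.03 and Cd68 by 0.20, and none of these markers was at 0.

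Of 12 markers of capillary endothelium 9 differed downward, with 0 of 10 tested passing (1 at an unadjusted p under 0.05, Cldn5 at -0.43). Their summed signal was 2259 to 2304 in Harlequin mice and 2352 to 3205 in controls. The mean deviation over the list, with genes weighted equally, overlapped, at -0.17 to -0.07 in Harlequin mice and -0.13 to 0.41 in controls. Of the 12, 3 were lower in all 3 Harlequin mice and 0 were higher, against 5.34% and 5.02% of all genes tested. Pecam1, a defining marker, gave 98.9, 128.6 and 119.0 in Harlequin mice and 116.5, 91.7 and 202.1 in controls.

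Red cell genes and neutrophil genes also differed upward, 8 of 9 and 10 of 10 on the array, with median log2 differences of 0.71 and 0.57. In the neutrophil list 1 of 10 tested passed, Chil3 (log2 difference 2.20, limma adjusted p = 0.0315), against 0.0303% of all genes tested. Chil3 was also the only gene of that list at an unadjusted p under 0.05. The genotypes overlapped for every other gene of the list. In the red cell list 0 of 7 passed (4 at an unadjusted p under 0.05, against 4.58% of all genes tested). The summed red cell signal was 6752 to 10095 in Harlequin mice and 3695 to 5993 in controls. Car2 gave the largest share of that sum and overlapped, at 3094.0 to 5543.0 in Harlequin mice and 2719.4 to 3542.7 in controls. The neutrophil sum was 41826 to 61978 in Harlequin mice and 22365 to 54399 in controls. The red cell sum was highest in Harlequin replicate 2, as were Adipoq and Fabp4. Genes of fibroblasts and matrix differed downward in 14 of 17 and of bone and cartilage in 12 of 12. The medians were -0.30 and -0.16, with 0 passing in either list (4 and 0 at an unadjusted p under 0.05). In the fibroblast list 2 genes were higher in all 3 Harlequin mice, Mfap5 (0.64) and Pi16 (1.01, below the filter). In that list 1 gene was lower in all 3, Col6a1 (-0.52). Mfap5 was among the 4 at an unadjusted p under 0.05. All genes of the bone list overlapped. Sums of the fibroblast list were 29584 to 48018 in Harlequin mice and 37037 to 49243 in controls, and those of the bone list 5176 to 8697 in Harlequin mice and 6310 to 9132 in controls. In both lists Harlequin replicate 2 was the highest Harlequin array. Skeletal muscle genes (0 of 3 tested passing, median -0.04) and olfactory genes (0 of 9, median 0.01), each with 0 at an unadjusted p under 0.05, had medians near 0. The part of any of these lists in the Adipoq or Fabp4 values was not tested.

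**Figure D5:**
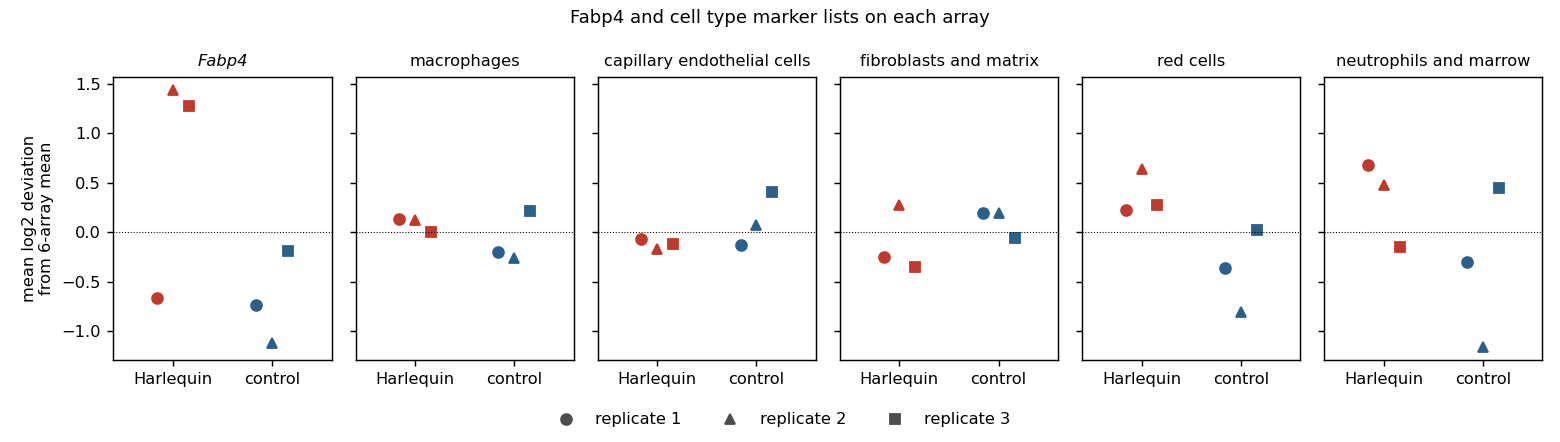
Mean deviation of log2(signal + 16) from the 6-array mean for Fabp4 at its brightest probe set and for 5 lists of cell type markers; points are arrays, Harlequin red and left, control blue and right. Fabp4 is high in Harlequin replicates 2 and 3 (1.44 and 1.28), where the macrophage list stands at 0.12 and 0.00 and the endothelial list at -0.17 and -0.12; the red cell list is higher in all 3 Harlequin arrays (0.22 to 0.64) than in controls (-0.81 to 0.02).

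Genes of nasal and sebaceous glands, lipid genes among them, were set beside Scd1, which sebaceous and other glands express. Of 11 gland genes on the array 7 differed downward, with 0 of 8 tested passing (2 at an unadjusted p under 0.05) and a median of -0.12, or -0.04 after quantile normalization. Their summed signal was 67469 to 69072 in Harlequin mice, below the controls at 73041 to 78262, and most of that sum came from Obp1a, Obp2a and Lcn11. The mean deviation over the genes of the list, which weights them equally, overlapped, at -0.26 to 0.19 in Harlequin mice and -0.03 to 0.21 in controls. Obp1a, an odorant-binding protein of nasal glands, gave 23439.8, 23746.5 and 23910.2 in Harlequin mice and 25309.3, 26508.7 and 25528.1 in controls, with control replicate 2 the highest, as for Scd1 (log2 difference -0.12). Lcn11, with the smallest unadjusted p of the list, was also lower in all 3 Harlequin mice (log2 difference -0.27, limma adjusted p = 0.981). It gave 19257.2, 19929.0 and 17910.8 in Harlequin mice and 21431.5, 23137.2 and 24317.1 in controls, with control replicate 3 the highest. The part of gland genes in the Scd1 values was not tested.

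Likeness to Adipoq and Scd1 was ranked among the other 13218 genes tested by the Pearson correlation of log2(signal + 16) over the 6 arrays, which share the difference between genotypes. The genes most like Adipoq were Polr2i (r = 0.986), Lrrc61 (0.979), Tctn3 (0.978), Mllt10 (0.977) and BC016579 (0.975), and Fabp4 ranked 192 (0.859). With 6 arrays, 103 genes, or 0.779%, had an r above 0.9. The genes most like Scd1 were Slc35a2 (0.997), Osbpl7 (0.992), Fkbp1a (0.990), Mfap3l (0.985) and Obp1a (0.985), with Scd2 at rank 1336 (0.628) and Fasn at 2837 (0.418). Adipoq and Scd1 were chosen for opposite differences between the genotypes, which fixes the sign of their correlation.

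After the genotype means were removed, so that only the spread within genotypes remained, other genes led each ranking. Them6 (0.998), Ppp1r14c (0.998), Mbd1 (0.997), Mcm7 (0.996) and Man1b1 (0.996) stood closest to Adipoq, with Fabp4 at rank 434 (0.874). Among other fat cell genes, r with Adipoq was positive for Cebpa (0.565) and Car3 (0.343). It was negative for Lpl (-0.042), Pparg (-0.227) and Lipe (-0.558). The perilipins Plin2 (-0.611), Plin3 (-0.845) and Plin5 (-0.868) were negative as well. Cip2a (0.999), Ntrk2 (0.998), Exosc9 (0.995), Atp10d (0.994) and Timm21 (0.992) stood closest to Scd1, with Fasn at rank 3078 (0.383). Within genotypes 313 genes, or 2.37%, had an r above 0.9 with Adipoq, and 200, or 1.51%, with Scd1.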

How the data were processed

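Each array held 45101 probe sets, whose deposited intensity values are on a linear scale. Their mean, trimmed by 2% at each end, was 500.0 on every array, and the sources used here do not name the software behind them. The labels' protocols give 3 µg of total RNA as the input to biotin labelling. After removing 64 control probe sets, 34945 probe sets named 1 gene (932 named several and 9160 were unnamed in the table used), and 0 symbols changed against RefSeq. Each gene was taken at its probe set of highest mean log2(value + 16) and tested above the 40th percentile (61.1), leaving 13219 genes.

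Harlequin was compared with control, 3 arrays each, by linear models in limma 3.58.1 under R 4.3.3, moderated with an intensity trend. Tests were two-sided, Benjamini-Hochberg adjusted over all genes and called under 0.05. Intervals cover 95%. Probe sets below the filter, and those that are not the brightest, took SE and interval from fits without the filter. The procedure was tested on simulated data. The number of arrays limits precision, and p-values weigh the difference between the genotypes against the moderated spread between these mice. Pseudocounts, filters, scalings, moderation, array weights, probe set rules, a replicate block and single arrays left out were tried.

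Members and lists were chosen with earlier results of these data known. Genes named are the members, their relatives, up to 3 genes of smallest p per list, those ranked most like Adipoq or Scd1, and defining markers. Lipe, Lpl, Car3, Cidea, C1qb, Fcer1g, Pi16, Lyz2, Car2 and Obp2a fall outside that rule.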

Additional observations from a re-analysis of the deposited data

How the results depend on the processing

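Of the members 0 were called under each of the 18 alternatives, where Adipoq and Scd1, chosen on this contrast, are not read as tested. Changed genes over all tested numbered 4, against 0 without an intensity trend (643 at an unadjusted p under 0.05), 0 with the replicate number as a block (541 at an unadjusted p under 0.05) and 0 to 3 with 1 array left out. Same-numbered arrays did not deviate together (correlations of -0.237, -0.030 and 0.058), so the numbers were not taken to pair the mice. The fat cell median was -0.13 and spanned -0.19 to 0.29 with 1 array left out, reaching 0.29 without Harlequin replicate 1. The lipogenic median was -0.13 and spanned -0.31 to -0.01 with 1 array left out, reaching -0.31 without control replicate 1. Over 16 alternatives Adipoq ran from 0.93 to 1.34, Fabp4 from 0.88 to 2.04 and Scd1 from -0.71 to -0.47. Adipoq and Scd1 were chosen on this contrast and do not overlap between the genotypes. Leaving out 1 array could therefore not turn their sign, and their constant direction is not read as support. Lep ran from -1.14 at a pseudocount of 1 to -0.05 without control replicate 3. Retn turned sign in 3 of 16, as did the fat cell median, and without Scd1 the lipogenic median, -0.01, turned in 6. No intensity trend, robust moderation and the replicate block left every member difference unchanged, so they could not turn a sign. Retn has 1 probe set, so the probe set rules could not move it either. Equal medians shifted all genes tested by 0.030. Medians without Adipoq or Scd1, and fits of every probe set on its own, were chosen after seeing the data. Weak signal limits Lep, Retn and Cidec.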
